A study of Mus musculus with 2 samples.

Results

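The 9 genes described here encode the proteins with which a cell receives a Hedgehog signal: the receptor Ptch1, the decoy receptor Hhip, the transducer Smo, the coreceptors Gas1, Cdon and Boc, and the Smoothened-side ciliary partners Gpr161, Evc and Evc2. They were chosen by name, as every line of the deposited tables whose gene symbol equals one of these 9, which gave 22 of 59055 transcripts and 9 of 30723 genes. Expression is compared between mandibular prominences of Kif3a mutant embryos and of control embryos, for the sum over each gene and for each transcript. None of the 9 genes differed 2-fold between the libraries. Hhip, the lowest of them, and Gpr161 had the highest ratios of mutant to control and Ptch1 the lowest.

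Hedgehog ligands bind Ptch1, which in their absence holds the seven-pass membrane protein Smoothened inactive. Gas1, Cdon and Boc bind the ligand together with Ptch1 and promote the response, while Hhip binds the ligand and withholds it. In vertebrates these steps meet at the primary cilium, which kinesin-2 motors such as the one containing Kif3a build and maintain: active Smoothened enters the cilium, EVC and EVC2 form a complex at the ciliary base that passes its signal on, and the orphan receptor GPR161 leaves the cilium, where it otherwise promotes protein kinase A activity and the repressor forms of GLI. Ptch1 and Hhip are transcribed in response to the signal, whereas transcription of Gas1, Cdon and Boc is known to be repressed by it in several embryonic tissues. In the mandibular prominence the ligand Shh comes from epithelium and the surrounding neural crest mesenchyme responds.

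The mutant embryos carried the genotype Kif3a f/f ; Wnt1-Cre, in which floxed Kif3a is deleted in cells that have expressed Wnt1-Cre, chiefly neural crest and its descendants, so that epithelium, endothelium, blood and myoblasts of the same tissue keep the gene. The other embryos are given as control, with no allele stated. Both groups are on a mixed CD1 background and are labelled E11.5, and each consists of 1 library of total RNA from 10 pooled embryos. The naming of the deposited tables gives e11 for the mutant, e11.5 for the control and a sequencing run of its own for each, so the effects of genotype, of the run and of a possible gap in age cannot be told apart. There are no replicates: differences between the 2 libraries have no test, and the intervals given are 95% intervals for counting error only, on about 24500000 fragments in the mutant library and 24700000 in the control library. Values are FPKM, the authors' fragments divided by transcript length and by the total of mapped fragments, so levels can be set side by side between genes. The log2 ratio is that of mutant FPKM over control FPKM after adding 1 to each.

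The labels were checked first on Kif3a, which stood at 5.39 FPKM in the mutant library and 11.46 FPKM in the control library, a ratio of 0.471 (0.431 to 0.514). All 8 markers of mandibular mesenchyme were well above the filter, with a summed level of 679 FPKM in the mutant and 768 FPKM in the control. All 10 oral epithelial markers were present, at a sum of 215 FPKM in the mutant and 182 FPKM in the control, and 8 of them had a log2 ratio above the median gene. The other cell types of the tissue were lower in the mutant. The 5 muscle markers summed to 7.20 FPKM in the mutant and 32.2 FPKM in the control, and the 6 endothelial markers to 32.9 FPKM in the mutant and 46.9 FPKM in the control. The 6 erythroid markers summed to 6948 FPKM in the mutant and 24003 FPKM in the control, and the 7 neuronal and glial markers to 9.92 FPKM in the mutant and 15.98 FPKM in the control. Markers of neighbouring regions were low: those of the second and posterior arches summed to 0.901 FPKM in the mutant and 2.11 FPKM in the control, those of heart to 0.205 FPKM in the mutant and 0.510 FPKM in the control and those of forebrain to 4.19 FPKM in the mutant and 5.81 FPKM in the control, and Myh6 and Myh7 of heart were under 0.1 FPKM in both libraries. In bulk tissue, fewer cells of a type and less RNA per cell cannot be told apart, and the part of these shifts in the values below was not tested.

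The 9 genes differed widely in level. Gas1, at 84.99 FPKM in the mutant library and 79.4 FPKM in the control library, and Smo, at 64.7 FPKM in the mutant and 71.1 FPKM in the control, lay at percentiles 93.1 and 91.4 of the mean level of all genes compared and together made up 63.8% of the summed FPKM of the 9 genes in the mutant and 61.7% in the control. Ptch1 followed at 38.3 FPKM in the mutant and 47.7 FPKM in the control. This sum counts parts of one mRNA in separate transcripts, as described below, so the share of Gas1 and Smo is understated. Weighted by length, Ptch1 had 19.6 FPKM in the mutant and 24.1 FPKM in the control, which leaves its place in the order unchanged. Next came Cdon at 13.2 FPKM in the mutant and 13.5 FPKM in the control, then Evc at 10.7 FPKM in the mutant and 10.8 FPKM in the control. Evc2, Gpr161 and Boc lay between 5.18 and 8.79 FPKM in the mutant and between 6.04 and 8.23 FPKM in the control, and Hhip was last at 1.02 FPKM in the mutant and 0.558 FPKM in the control. The order was the same in both libraries except that Gpr161 stood above Evc2 in the mutant and below it in the control. Neighbours in this order were apart by more than counting error, except Gpr161 and Evc2 in the mutant library and Gpr161 and Boc in the control library, whose intervals overlapped.

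**Figure D1:**
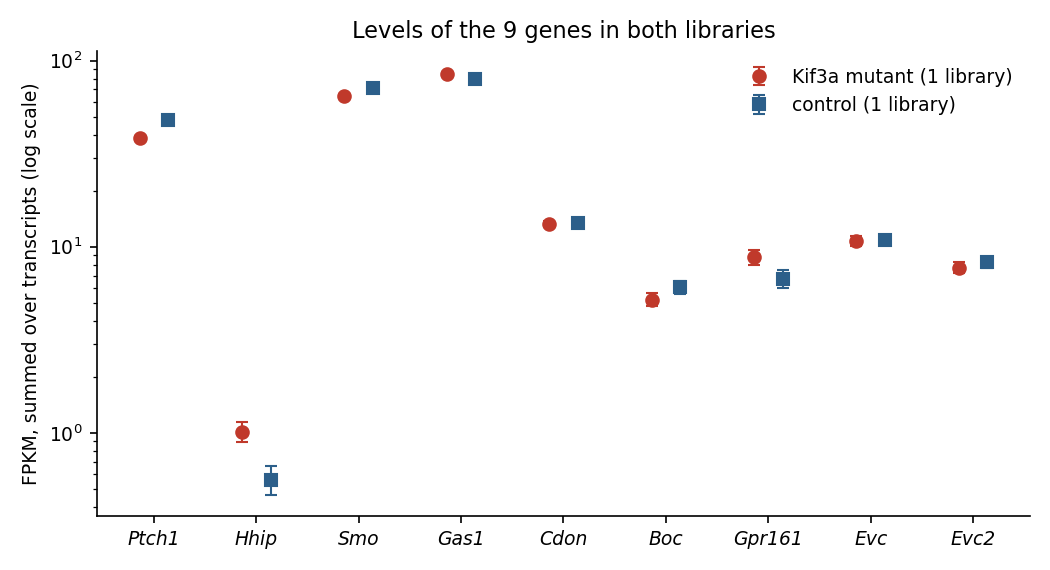
FPKM of each of the 9 genes, summed over its transcripts, on a log scale, in the 1 Kif3a mutant library (red circles, left) and the 1 control library (blue squares, right); bars are 95% Poisson counting intervals. Gas1 and Smo are the most abundant and Hhip the least, and the separation of the libraries is widest for Hhip, at 1.02 FPKM in the mutant against 0.558 FPKM in the control.

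Of the 12259 genes with a mean of 1 FPKM or more, 2.13% were at least 2-fold apart between the libraries, 0.767% higher and 1.36% lower in the mutant. Among the 9 genes 8 passed this filter, all except Hhip, and 0 of the 8 were 2-fold apart, a share that at this background says little about so few genes. The log2 ratios of the 9 ran from -0.31 for Ptch1 to 0.37 for Hhip. Ratios under 1 (log2 below 0) were found for 6 of the 8 and for 67.9% of all genes compared, whose median was -0.13; scaling FPKM to one total per library (TPM-like scaling) moved that median to 0.39 and left all 9 genes with a log2 ratio above 0. The median of the 8 was -0.05, and 3 of them, Ptch1, Boc and Smo, lay below the median gene. The log2 ratios of 5 of the 8 lay between the 25th and 75th percentile of all genes, -0.30 and 0.06, and those of Ptch1, Gas1 and Gpr161 outside it.

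The receptor and the decoy receptor are the 2 genes among the 9 described above as transcribed in response to the signal. As sums over their transcripts they lay on opposite sides of the median gene. Ptch1, at chr13:63508336-63565520 on the minus strand of GRCm38, stood at 38.3 FPKM in the mutant library against 47.7 FPKM in the control library, a ratio of 0.802 (0.769 to 0.836) and a log2 ratio of -0.31, at percentile 23.7 of all genes. Hhip, at chr8:79965851-80058008 on the minus strand, stood at 1.02 FPKM in the mutant against 0.558 FPKM in the control, on about 262 fragments in the mutant and 129 in the control, a ratio of 1.82 (1.47 to 2.27) and a log2 ratio of 0.37. The mutant library was thus the lower one for the abundant receptor and the higher one for the rare decoy. An exonic stretch of 175 bases of Hhip overlaps the annotated gene Gm27820 on the opposite strand, and whether the libraries kept strand is not given in the sources used here.

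Because both genes are GLI targets in other settings, their promoters were searched for the GLI core TGGGTGGTC and for its inner letters GGGTGG, which the longer motif contains, on both strands of the RefSeq window from 250 bases before to 50 bases after each gene start (build GRCm38.p6). RefSeq promoters were matched for 8 of the 9 genes, with 2 for Gpr161. The full core was found in 0 of these 9 windows and in 0.253% of all 32851 promoters. The inner letters were found in the windows of Hhip, at position -158, and of Smo, at -162, both as CCACCC, and in 31.5% of all promoters. A match is a description of the letters and no evidence of a bound site, and a window without a match says nothing of GLI binding there. The 250 bases before the start are shown for Ptch1 and Hhip, 5′ to 3′ on the gene's own strand, from chr13:63565736-63565985 and chr8:80058009-80058258, with the inner letters in capitals. They were 78.4% and 76% G or C and held 41 and 28 CG pairs.
Ptch1: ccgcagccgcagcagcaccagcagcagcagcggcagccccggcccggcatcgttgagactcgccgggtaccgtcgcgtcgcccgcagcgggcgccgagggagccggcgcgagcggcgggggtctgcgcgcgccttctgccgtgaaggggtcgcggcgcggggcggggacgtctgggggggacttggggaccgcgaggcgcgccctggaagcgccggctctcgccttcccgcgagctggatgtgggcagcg
Hhip: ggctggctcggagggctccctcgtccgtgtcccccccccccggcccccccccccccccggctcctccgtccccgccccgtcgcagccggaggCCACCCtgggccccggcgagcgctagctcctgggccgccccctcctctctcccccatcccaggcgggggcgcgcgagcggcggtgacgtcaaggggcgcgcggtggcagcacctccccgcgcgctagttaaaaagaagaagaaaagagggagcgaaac

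The Ptch1 value rests on 2 deposited transcripts that cover different ends of one mRNA. One, of 4306 bases (chr13:63511532-63565520), matches the coding sequence: of the longest annotated coding mRNA of Ptch1 it takes in all 4302 coding bases and 4 bases of 3′ UTR. The other, of 3676 bases (chr13:63508336-63514341), lies at the 3′ end, where that mRNA has 895 coding bases and 3200 bases of 3′ UTR. The coding transcript stood at 17.8 FPKM in the mutant and 19.3 FPKM in the control, a ratio of 0.923 (0.868 to 0.980). The 3′ transcript stood at 20.2 FPKM in the mutant and 27.9 FPKM in the control, a ratio of 0.723 (0.682 to 0.767), and its interval does not overlap that of the coding transcript. The ranges of both share 899 bases of that mRNA, where the tool divides fragments by estimation, an error that these intervals do not cover. As deposited, most of the lower sum of Ptch1 in the mutant came from the 3′ transcript, with log2 ratios of -0.45 for it and -0.11 for the coding one. With the coding transcript alone, Ptch1 was not below the median gene (-0.13 for sums, -0.15 with the most abundant transcript of each gene). That comparison takes no account of length: genes of over 4000 to 6000 bases had a median of -0.02, above the -0.11 of the coding transcript. The level of the 3′ transcript was 1.13 times that of the coding transcript in the mutant and 1.44 times in the control. Since a full Ptch1 mRNA of 7725 bases would be counted in both, their sum overstates the number of Ptch1 molecules: weighted by length over that mRNA, the level was 19.6 FPKM in the mutant and 24.1 FPKM in the control. The other 3 transcripts of Ptch1 each had at most 0.247 FPKM in the mutant and 0.192 FPKM in the control, on about 6 fragments or fewer.

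**Figure D2:**
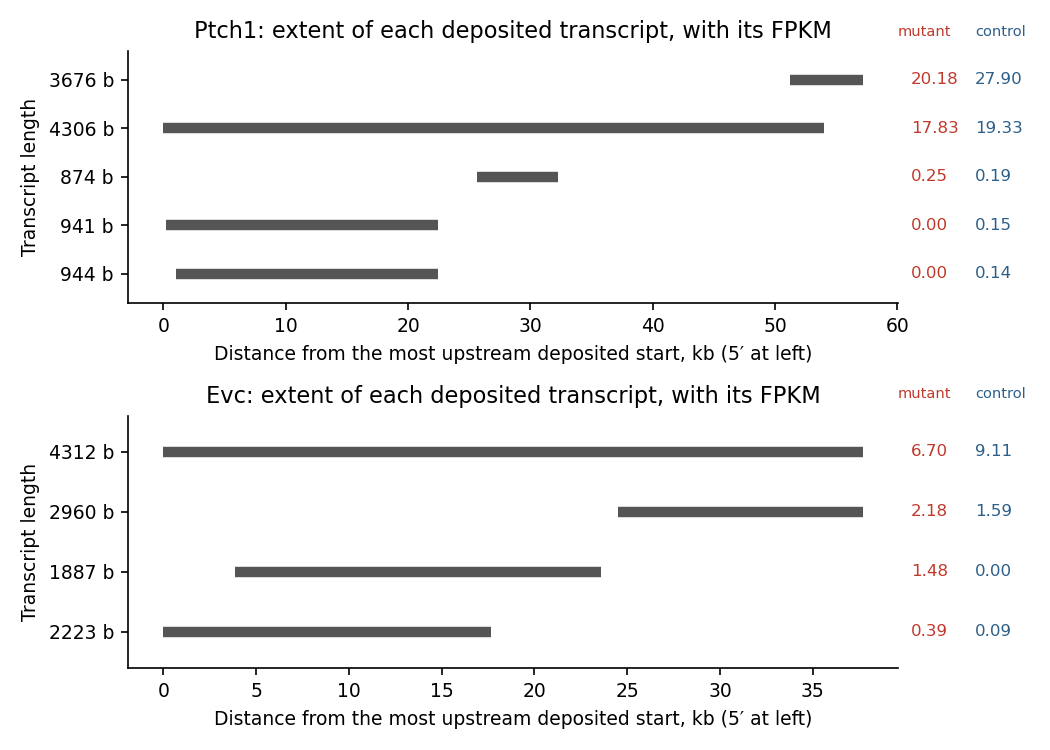
Extent of each deposited transcript of Ptch1 (top) and Evc (bottom) as its distance in kilobases from the most upstream start, with the 5′ end at the left; numbers at the right are its FPKM in the mutant library (red) and in the control library (blue). In Ptch1 the short 3′ transcript differs more between the libraries (20.18 FPKM in the mutant, 27.90 FPKM in the control) than the coding transcript (17.83 FPKM in the mutant, 19.33 FPKM in the control); in Evc the longest transcript is lower in the mutant and the 3 shorter ones are higher.

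Both libraries differed along transcript length, and this bears on Ptch1, Hhip, Cdon and Gpr161. Genes of different length had different medians of the log2 ratio, -0.24 for 2848 genes of over 1000 to 2000 bases, -0.11 for 2084 genes of over 3000 to 4000 bases, 0.12 for 706 genes of over 6000 to 8000 bases and 0.27 for 362 genes of over 8000 to 12000 bases. A smooth trend of log2 ratio on length (lowess) was subtracted, read first at the length of the most abundant deposited transcript. Ptch1 then had -0.22, at percentile 16.3 of all genes. Read at the annotated 7725 bases of its mRNA, a choice made after the values were seen, it had -0.50, at percentile 3.90. The trend and the other genes stayed at deposited lengths, so this percentile sets Ptch1 against genes measured otherwise. For Hhip, whose transcript has 9078 bases, the trend was 0.28 and the remainder 0.09, at percentile 67.2. That remainder depends on the pseudocount, which damps the ratio of a gene near 1 FPKM more than the trend of abundant genes: with 0.1 added in place of 1, also chosen after the values were seen, Hhip had a remainder of 0.44, at percentile 91.8.

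**Figure D3:**
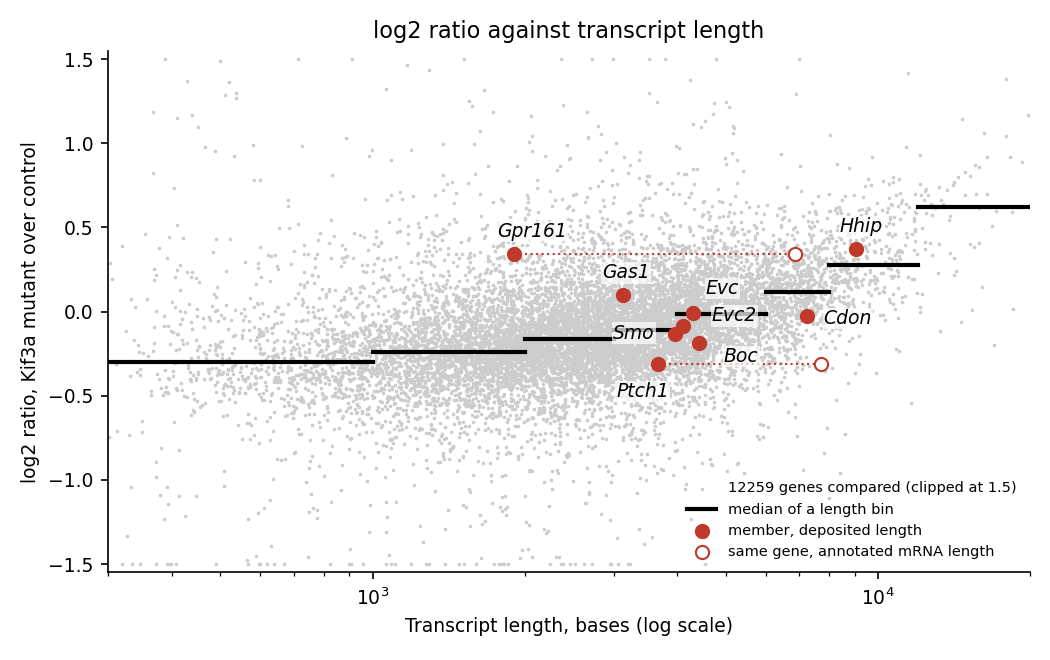
log2 ratio of mutant over control against transcript length in bases (log scale) for the 12259 genes compared (grey, clipped at 1.5 in either direction) and the 9 genes (red); black lines are medians of length bins, and open circles place Ptch1 and Gpr161 at their annotated mRNA lengths of 7725 and 6862 bases. The bin medians climb with length. Ptch1, Boc and Cdon lie under them and Gas1, Gpr161 and Hhip over them, while Smo, Evc and Evc2 lie nearer to them.

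Smo, at chr6:29735497-29761366 on the plus strand, has a single deposited transcript of 3977 bases. It stood at 64.7 FPKM in the mutant library and 71.1 FPKM in the control library, a ratio of 0.909 (0.879 to 0.940). Its log2 ratio of -0.14 was that of the median gene to within 0.005, at percentile 49.3, so the transducer followed the general shift between the libraries.

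The 3 coreceptors did not share a direction as deposited, although all 3 had a log2 ratio above 0 with TPM-like scaling. Gas1, a GPI-anchored protein, at chr13:60174405-60177535 on the minus strand, stood at 84.99 FPKM in the mutant and 79.4 FPKM in the control, a ratio of 1.07 (1.03 to 1.11) and a log2 ratio of 0.10, at percentile 78.0 of all genes and above the median gene in all 12 settings that have a median gene of their own. Several of these settings rescale whole libraries or leave the value of Gas1 as deposited, so they are not independent of each other. An annotated gene on the opposite strand, Gm48488, overlaps 589 exonic bases of Gas1. Cdon, an immunoglobulin and fibronectin repeat protein, at chr9:35421124-35507652 on the plus strand, stood at 13.2 FPKM in the mutant and 13.5 FPKM in the control, a ratio of 0.981 (0.928 to 1.04), an interval that takes in 1. Nearly all of it, 97.7% in the mutant and 98.8% in the control, was the transcript of 7245 bases, at 12.9 FPKM in the mutant and 13.3 FPKM in the control. Cdon lay 0.10 above the median gene as deposited, but with the length trend removed it had -0.18, below the median gene.

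Boc, the paralogue of Cdon, at chr16:44485045-44558870 on the minus strand, stood at 5.18 FPKM in the mutant and 6.04 FPKM in the control, a ratio of 0.857 (0.767 to 0.958). Its 3 transcripts went different ways. The transcript of 4425 bases stood at 4.07 FPKM in the mutant and 3.60 FPKM in the control. A transcript with the same ends and 3 bases more, 4428, stood at 0.695 FPKM in the mutant and 2.41 FPKM in the control, a ratio of 0.289 (0.223 to 0.371), and made up 13.4% of the gene in the mutant against 39.8% in the control. The tool divides fragments between transcripts that are nearly the same by estimation, an error that these intervals do not cover. The transcript of 2655 bases, of which at least 908 lie outside annotated exons, stood at 0.417 FPKM in the mutant and 0.0350 FPKM in the control, on about 30 fragments in the mutant and 2 in the control, a ratio of 11.9 (3.02 to 103). With the most abundant transcript alone, Boc had a log2 ratio of 0.14 in place of -0.19, above the median gene. Cdon exceeded Boc 2.55-fold in the mutant and 2.23-fold in the control.

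**Figure D4:**
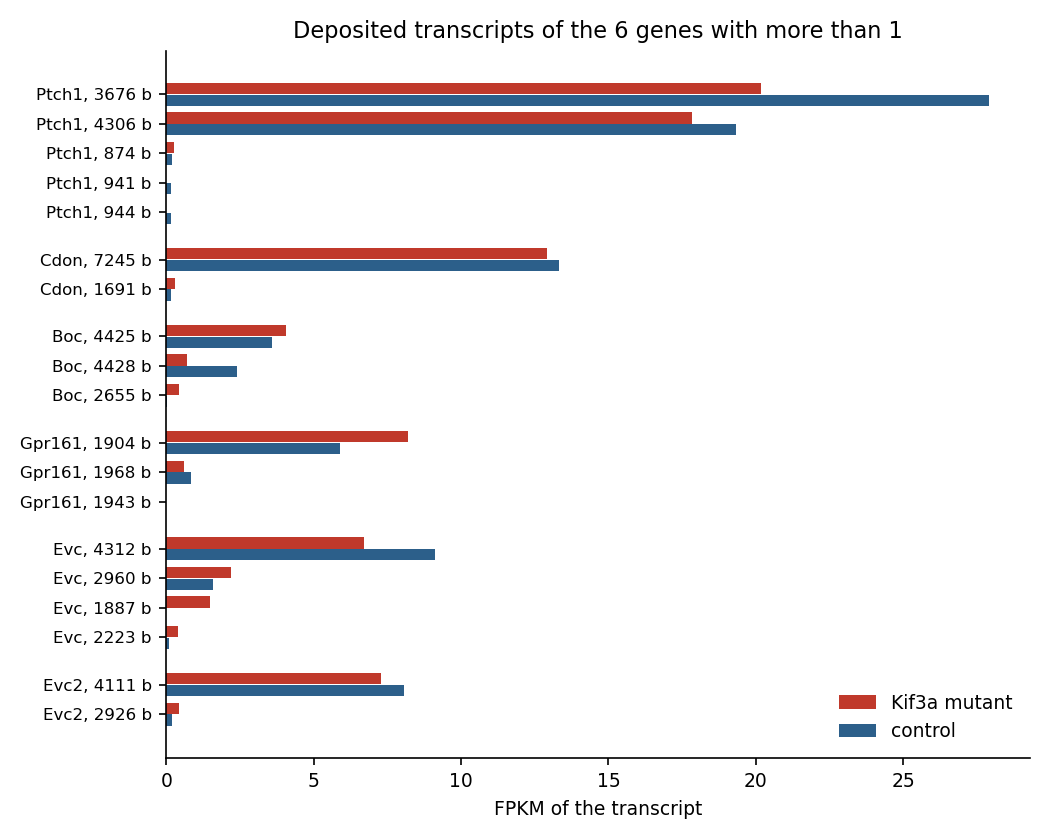
FPKM of every deposited transcript of the 6 genes with more than 1, labelled by gene and length in bases, in the mutant library (red, upper bar) and the control library (blue, lower bar). The 4425-base transcript of Boc and the 4312-base transcript of Evc lead their genes in both libraries, and the 4428-base transcript of Boc is at 0.695 FPKM in the mutant and 2.41 FPKM in the control.

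Gpr161, at chr1:165295766-165321851 on the plus strand, stood at 8.79 FPKM in the mutant and 6.71 FPKM in the control, a ratio of 1.31 (1.13 to 1.51) and a log2 ratio of 0.34, at percentile 92.7. The difference lay in its transcript of 1904 bases, at 8.19 FPKM in the mutant and 5.88 FPKM in the control, a ratio of 1.39 (1.20 to 1.62). The transcript of 1968 bases, which begins at a start further downstream, stood at 0.597 FPKM in the mutant and 0.829 FPKM in the control, a ratio of 0.719 whose interval takes in 1 (0.439 to 1.17). A transcript of 1943 bases was near 0 in both libraries. Gpr161, too, lay above the median gene in all 12 settings, which are not independent of each other. The deposited transcripts stop short of the longest annotated coding mRNA of Gpr161, which has 6862 bases. With the length trend read at the deposited length Gpr161 had 0.55. With the trend read at the annotated length, a choice made after the values were seen, it had 0.22, at percentile 82.5. Here too the trend and the other genes stayed at deposited lengths.

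Evc and Evc2 encode partner proteins and lie head to head on chromosome 5, with 1597 bases between their deposited starts at 37336881 (Evc, minus strand) and 37338478 (Evc2, plus strand). Their promoters are shown as the 250 bases before each RefSeq start, chr5:37336882-37337131 for Evc and chr5:37338228-37338477 for Evc2, because the pair is divided by this short stretch. They hold 11 CG pairs each and neither GLI motif.
Evc: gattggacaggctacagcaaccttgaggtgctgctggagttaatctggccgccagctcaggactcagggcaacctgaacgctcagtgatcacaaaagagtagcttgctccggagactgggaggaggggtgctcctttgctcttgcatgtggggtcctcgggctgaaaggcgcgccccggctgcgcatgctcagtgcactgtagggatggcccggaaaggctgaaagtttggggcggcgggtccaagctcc
Evc2: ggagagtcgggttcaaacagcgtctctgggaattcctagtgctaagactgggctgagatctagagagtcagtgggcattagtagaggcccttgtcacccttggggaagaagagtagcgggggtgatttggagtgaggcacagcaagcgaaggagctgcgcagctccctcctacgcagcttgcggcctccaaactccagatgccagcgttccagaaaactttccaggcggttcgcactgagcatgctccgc

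As sums, both genes were close to level between the libraries. Evc stood at 10.7 FPKM in the mutant and 10.8 FPKM in the control, a ratio of 0.995 (0.914 to 1.08). Evc2 stood at 7.72 FPKM in the mutant and 8.23 FPKM in the control, a ratio of 0.937 (0.851 to 1.03). Evc exceeded Evc2 1.39-fold in the mutant and 1.31-fold in the control.

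The transcripts of Evc were not level. Its longest, of 4312 bases, stood at 6.70 FPKM in the mutant and 9.11 FPKM in the control, a ratio of 0.735 (0.668 to 0.808), and its share of the gene was 62.3% in the mutant and 84.4% in the control. The transcript of 1887 bases, inside the gene, stood at 1.48 FPKM on about 76 fragments in the mutant and was at 1.16e-05 FPKM in the control. The 3′ transcript of 2960 bases stood at 2.18 FPKM in the mutant and 1.59 FPKM in the control, a ratio of 1.37 (1.08 to 1.75), and the transcript of 2223 bases at 0.388 FPKM in the mutant and 0.0938 FPKM in the control. As estimated, the longest transcript was thus lower and the 3 shorter ones higher in the mutant. The tool divides fragments between these overlapping transcripts by estimation, an error that the intervals do not cover. The transcripts of 2960 and 2223 bases share an end, to within 10 bases, with annotated retained-intron transcripts of Evc. That of 2960 bases also shares an end with an annotated coding transcript. That of 1887 bases shares an end with a coding transcript and with no retained-intron one. A shared end does not show that a transcript keeps an intron. For Evc2 the transcript of 4111 bases stood at 7.28 FPKM in the mutant and 8.05 FPKM in the control, a ratio of 0.904 (0.820 to 0.996), and that of 2926 bases at 0.436 FPKM in the mutant and 0.179 FPKM in the control, a ratio of 2.44 (1.26 to 5.02). The 2926-base transcript of Evc2 likewise shares an end with an annotated retained-intron transcript. With its most abundant transcript alone Evc had a log2 ratio of -0.39 in place of -0.01.

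At transcript level, 2 of the 22 deposited transcripts were at least 2-fold apart on the log2(FPKM + 1) scale, the 4428-base transcript of Boc (log2 ratio -1.01) and the 1887-base transcript of Evc (1.31). Of all 59055 transcripts 2.87% were as far apart. Among transcripts with a mean of 1 FPKM or more, which leaves out that of Evc, 1 of 11 was 2-fold apart, against 6.78% of all 18494. The Boc transcript was no longer 2-fold apart when the ratios were centred on the median gene. Both belong to genes whose sums were not 2-fold apart.

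**Figure D5:**
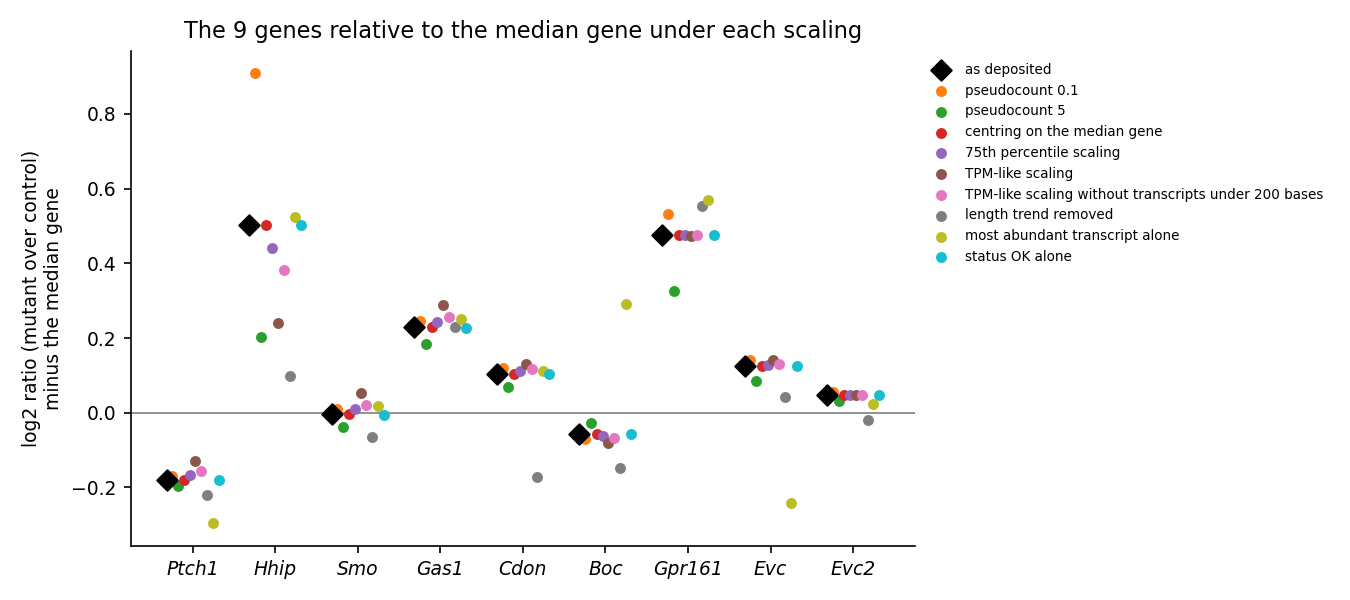
log2 ratio of mutant over control minus that of the median gene, for each of the 9 genes under 10 settings; black diamonds are the values as deposited and coloured circles the alternatives. Gas1, Hhip and Gpr161 lie above 0 and Ptch1 below 0 in every setting drawn, while Smo, Cdon, Boc, Evc and Evc2 lie on either side. Several settings rescale whole libraries and are not independent. The coding transcript of Ptch1 alone, with a log2 ratio of -0.11 that is not below the median gene, is not drawn.

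The other genes of the pathway were read from 6 lists by role, against the background of 0.767% of genes 2-fold higher and 1.36% 2-fold lower in the mutant, and a median log2 ratio of -0.13 over all genes. Above the 9 genes in the pathway, 1 of 5 ligand and release genes over the filter was 2-fold higher and 0 were 2-fold lower, with a median of -0.07 (0.43 with TPM-like scaling). That gene was Shh, the epithelial ligand, at 9.39 FPKM in the mutant and 4.06 FPKM in the control (log2 ratio 1.04). The summed epithelial markers were also higher in the mutant, at 215 FPKM against 182 FPKM in the control, and their part in this difference was not tested. Scube3, a secreted release factor, stood at 13.2 FPKM in the mutant and 10.2 FPKM in the control, and its relative Scube1 at 6.11 FPKM in the mutant and 11.7 FPKM in the control (log2 ratio -0.84). Hhat, the acyltransferase that palmitoylates the ligand, had -0.37.

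At the surface and at Smoothened, 0 of the genes with a mean of 1 FPKM or more were 2-fold apart on the log2(FPKM + 1) scale. Under that filter was the surface receptor gene Lrp2, named after its values were seen, at 1.06 FPKM in the mutant and 0.390 FPKM in the control, a ratio of 2.72 (2.26 to 3.29). Its log2 ratio was 0.57, and -0.04 with the length trend removed at its 15467 bases. Of the 5 other surface partners over the filter, with a median of -0.21 that was 0.33 with TPM-like scaling, the glypican Gpc3 was the most abundant at 366 FPKM in the mutant and 428 FPKM in the control. The list also takes in Grem1, which encodes a secreted BMP antagonist and no receptor. Among these 5, Grem1 had the lowest log2 ratio, -0.36, and Gpc6 the highest, 0.14. Of 11 Smoothened and EVC zone partners, with a median of -0.18 that was 0.36 with TPM-like scaling, the log2 ratios ran from -0.34 for the casein kinase Csnk1g2 and -0.23 for the arrestin Arrb2 to 0.12 for the ubiquitin ligase Itch and 0.18 for Csnk1g1. The most abundant of these partners, Csnk1a1, stood at 136.9 FPKM in the mutant and 138.5 FPKM in the control.

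Genes of the Gpr161, cyclic AMP and protein kinase A axis were mostly on the other side of the median gene from Gpr161 itself. Of the 12 genes of this axis, 0 were 2-fold apart, 11 had a lower FPKM in the mutant, as had 67.9% of all genes compared, 9 of the 11 lay below the median gene, and their median was -0.28, or -0.15 with the length trend removed, while TPM-like scaling gave 0.27. Gnas, which encodes the stimulatory G protein subunit, stood at 602 FPKM in the mutant and 958 FPKM in the control (log2 ratio -0.67). Prkaca, a catalytic subunit of protein kinase A, stood at 49.1 FPKM in the mutant and 73.9 FPKM in the control (-0.58). The regulatory subunit gene Prkar2b had -0.08 and the adenylyl cyclase gene Adcy6 0.02.

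Downstream, 0 of 12 GLI factors and regulators were 2-fold apart, with a median of -0.05 (0.41 with TPM-like scaling). Gli1, an activator that is itself a target, stood at 8.14 FPKM in the mutant and 16.7 FPKM in the control (log2 ratio -0.96), just inside 2-fold on this scale. Spop, a ubiquitin ligase adaptor, had -0.23, Gli3 0.28 and Gsk3b 0.29, and Sufu, which restrains the GLI proteins, was the most abundant at 31.7 FPKM in the mutant and 36.6 FPKM in the control. Of 12 readout genes over the filter, Ptch1, Cdon, Boc and Gas1 among them, 0 were 2-fold higher and 6 were 2-fold lower, with a median of -1.23 (-0.71 with TPM-like scaling). These 6 were the forkhead factor genes Foxf1 (log2 ratio -2.43), Foxf2 (-2.30), Foxd1 (-2.05), Foxd2 (-1.86), Foxl1 (-1.75) and Foxc2 (-1.50). Within this list the genes of the surface were nearer to level than the forkhead genes: Ptch1 had -0.31 and Hhip, under the filter, 0.37. The coreceptors Cdon, Boc and Gas1, which the signal represses in several embryonic tissues, had -0.03, -0.19 and 0.10. Gli1, also on the list, had -0.96. The readout list was drawn up with earlier results of these libraries known, so neither its direction nor this contrast is independent evidence.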

How the data were processed

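RNA of 2 pools of mandibular prominences was measured, 1 library per group. Per the file headers, the authors deposited for each library a table of 59120 transcripts under UCSC known gene identifiers, with locus, length, coverage signal and FPKM. The naming of the tables gives Cufflinks as the tool; the sources used here do not give its version, the aligner or strandedness. The build named by the submitters' processing notes is mm9, but 72.1% of 45475 transcripts with a shared symbol had a start or end identical to one in GENCODE M21, so coordinates are given on GRCm38.

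Lines with displaced columns, 65 per library, were left out. FPKM was summed per symbol, and genes with a mean of 1 FPKM or more were compared by log2 ratio with a pseudocount of 1, which understates differences of low genes. With 1 library per group no test was made. Fragments were approximated as the deposited coverage times length over 153 bases per fragment in the mutant and 156 in the control. Exact Clopper-Pearson intervals for ratios and exact Poisson intervals for levels (95%) follow from them. They leave out the estimated split between transcripts. The length trend was fitted by lowess with a fraction of 0.2. Python 3.11.15, numpy 2.4.6, pandas 2.3.3, scipy 1.17.1, statsmodels 0.14.6 and matplotlib 3.10.9 were used, and the scripts were tested on simulated data.

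All 9 genes and their transcripts are named, with Kif3a, and of each pathway list the genes 2-fold apart, the 2 lowest, the 2 highest and the most abundant. Some genes that this rule or the lists take in are not reported here by name. The genes and lists were chosen with earlier results of these data known. Alternatives covered pseudocount, filter, scaling, length and choice of transcript.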

Additional observations from a re-analysis of the deposited data

How the results depend on the processing

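None of the 9 genes was 2-fold apart under any of the 14 alternatives run for each gene. The median log2 ratio of the 8 over the filter, -0.05 as deposited, was 0.076 when centred on the median gene, 0.069 with 75th percentile scaling, 0.48 with TPM-like scaling and 0.19 with TPM-like scaling without transcripts under 200 bases; under TPM-like scaling the median over all genes was 0.39, and all 9 genes were above 0, from 0.26 for Ptch1, which remained below the median gene, to 0.87 for Gpr161. Of the 9 genes, 3 lay below the median gene as deposited, 6 without a filter, 5 with the length trend removed and 5 with the trend at annotated length. Without a filter the median over all 30723 genes was 0, so those 6 are the genes with a log2 ratio below 0. Transcripts 2-fold apart numbered 2 as deposited, 6 with a pseudocount of 0.1 and 1 with centring. Of all genes, 261 were 2-fold apart, against 491 with a pseudocount of 0.1, 92 with 5, 142 with a filter of 5 FPKM and 540 with TPM-like scaling. Higher and lower genes numbered 94 and 167, against 132 and 129 with centring, 128 and 137 with 75th percentile scaling, 472 and 68 with TPM-like scaling, 162 and 110 with it without short transcripts and 124 and 109 with the length trend removed. Pathway list genes 2-fold apart numbered 7, and 4 with a pseudocount of 5. The cause of these shifts was not tested. No paired analysis was possible because each group is 1 library. Depth limits Hhip, the minor transcripts and Gpr161 most.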
